A study of Mus musculus with 24 samples.

Results

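Immunoglobulin light-chain genes were measured in sorted CD45+ cells of the mouse ileum, over 4 genotypes. The members are all genes whose GENCODE M21 symbol starts with Igkv, Igkc, Iglv or Iglc and whose type is IG_V_gene or IG_C_gene. This rule gave 108 of the 39056 genes in the count table: 100 Igkv genes, Igkc, 3 Iglv genes and 4 Iglc genes. Mice were either Hoil1+/+ or Hoil1-/-, all were Il4raflox/flox, and they did or did not carry Vil1cre. The strain is C57BL/6 in the labels and C57BL/6 J in the study's methods. Each of these 4 genotypes had 3 CD45+ and 3 CD45- libraries. Below, f/f stands for Il4raflox/flox without Vil1cre and ΔIEC for the same with Vil1cre. All 4 groups therefore carry loxP-flanked Il4ra, and Vil1cre removes it in intestinal epithelial cells, so the CD45+ cells themselves are not the target of the deletion. The Hoil1-/- allele still makes a low amount of the N-terminal part of HOIL1, the protein encoded by Rbck1. The mice were 9 to 9.9 weeks old for the CD45+ and 9 to 10.3 weeks old for the CD45- libraries, Peyer's patches had been removed, and part of the epithelial fraction was added to the lamina propria cells before the sort. The labels do not tie libraries to single animals, so p-values measure only the spread between these libraries, which may be technical.

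Each B cell joins 1 of many V segments to a J segment, and the transcript is spliced to a constant (C) gene, so its reads carry the mark of the segment that was chosen. Kappa chains are built at a locus on chromosome 6 with many V segments and the single C gene Igkc. Lambda chains are built at a small locus on chromosome 16, where Iglv1 is joined mainly to Iglc1 or Iglc3 and Iglv2 and Iglv3 mainly to Iglc2. Plasma cells, which secrete antibody, are abundant in the lamina propria of the ileum, make mostly IgA and hold far more light-chain RNA per cell than resting B cells.

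On GRCm38, Igkc lies on the plus strand of chromosome 6 (70726435 to 70726966). The Igkv genes lie upstream of it, 38 on the plus and 62 on the minus strand, in 20 families. The lambda genes are all on the minus strand of chromosome 16, with Iglc1 at 19061618 to 19062071, Iglc3 at 19065230 to 19065681, Iglv1 at 19085017 to 19085500, Iglc4 at 19194999 to 19195312, Iglc2 at 19198396 to 19200351, Iglv3 at 19241207 to 19241690 and Iglv2 at 19260401 to 19260859. In the 12 CD45+ libraries, 9 Igkv segments were the most used of at least 1 library. The last 75 coding bases of these 9 segments are shown (GENCODE M21, GRCm38, strand of the gene), because this end forms the germline part of the third complementarity-determining region. The capitals mark the codon of the cysteine that opens that region, which a script took as the last in-frame cysteine codon.
Igkv10-96: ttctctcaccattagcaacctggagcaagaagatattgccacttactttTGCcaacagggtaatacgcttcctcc
Igkv6-15: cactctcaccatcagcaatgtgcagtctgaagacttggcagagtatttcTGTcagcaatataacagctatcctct
Igkv1-110: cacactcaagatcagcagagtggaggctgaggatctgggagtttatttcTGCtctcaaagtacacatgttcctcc
Igkv8-27: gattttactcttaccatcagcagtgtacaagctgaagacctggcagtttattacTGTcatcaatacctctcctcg
Igkv5-48: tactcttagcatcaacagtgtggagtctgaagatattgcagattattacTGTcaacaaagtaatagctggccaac
Igkv8-21: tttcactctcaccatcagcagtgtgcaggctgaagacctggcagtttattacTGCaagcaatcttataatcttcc
Igkv12-46: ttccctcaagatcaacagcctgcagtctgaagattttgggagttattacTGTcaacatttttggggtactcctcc
Igkv4-57-1: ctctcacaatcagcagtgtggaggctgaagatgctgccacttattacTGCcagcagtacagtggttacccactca
Igkv8-30: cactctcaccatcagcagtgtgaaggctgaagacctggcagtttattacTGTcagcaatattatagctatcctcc
From the first base of this codon to the end there are 21 to 40 bases over all V genes shown, and this is the part that meets the J segment. These stretches lie at chr6:68631963-68632037 (Igkv10-96), chr6:70406469-70406543 (Igkv6-15), chr6:70171809-70171883 (Igkv8-27), chr6:69726573-69726647 (Igkv5-48), chr6:70314895-70314969 (Igkv8-21), chr6:69764523-69764597 (Igkv12-46), chr6:69544359-69544433 (Igkv4-57-1) and chr6:70117061-70117135 (Igkv8-30) on the minus strand and at chr6:68271193-68271267 (Igkv1-110) on the plus strand. The lambda C genes are shown because their likeness limits how reads can be told apart. The first 120 bases from the start of a codon at the 5′ end of the coding part are given, with capitals in Iglc3 and Iglc1 where they differ from Iglc2.
Iglc2: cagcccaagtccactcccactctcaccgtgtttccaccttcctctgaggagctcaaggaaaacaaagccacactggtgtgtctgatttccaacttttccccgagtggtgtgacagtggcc
Iglc3: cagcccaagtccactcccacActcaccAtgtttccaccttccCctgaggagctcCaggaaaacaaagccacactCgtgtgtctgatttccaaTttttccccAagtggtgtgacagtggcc
Iglc1: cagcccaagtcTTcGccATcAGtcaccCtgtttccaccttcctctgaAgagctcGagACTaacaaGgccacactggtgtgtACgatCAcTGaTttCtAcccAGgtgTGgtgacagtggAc
They lie at chr16:19198731-19198850 (Iglc2, after its first codon), chr16:19065560-19065679 (Iglc3) and chr16:19061950-19062069 (Iglc1), minus strand. Iglc3 differed from Iglc2 at 7 of these 120 bases and Iglc1 at 28. Over the whole coding part, Iglc2 and Iglc3 were 96.5% identical (11 differences in 314 compared bases), and Iglv1 and Iglv2 were 96.9% identical (11 in 351), whereas Iglc1 and Iglc2 were 74.8% identical. The V genes of the lambda locus end as follows, with the cysteine codon in capitals again.
Iglv1: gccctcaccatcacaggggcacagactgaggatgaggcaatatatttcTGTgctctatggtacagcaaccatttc
Iglv2: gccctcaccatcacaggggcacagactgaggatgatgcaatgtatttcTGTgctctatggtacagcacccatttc
Iglv3: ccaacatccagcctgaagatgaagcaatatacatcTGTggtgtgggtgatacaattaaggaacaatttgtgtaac
They lie at chr16:19085017-19085091 (Iglv1), chr16:19260401-19260475 (Iglv2) and chr16:19241207-19241281 (Iglv3), minus strand. Among the Igkv genes, 47 of 100 were over 95% identical to another Igkv gene. For 90 of 100, no stretch of 150 bases, the length of an untrimmed read, occurred in the transcript of another light-chain gene. This compared reference sequences not joined to a J segment, by exact match. Reads can cross that junction and were kept from 40 bp, so it does not show that reads were assigned to the right segment. Stretches of this length were shared, among others, between Igkv6-20 (54.0% of stretches unique) and Igkv6-29 (61.9%) and between Igkv13-84 and Igkv13-85 (77.8% each). The same was true of Igkv5-43 (80.9%) and Igkv5-45 (81.4%), whereas Iglc2, Iglc3, Iglv1 and Iglv2 shared none. Counts of near-identical genes, above all these Igkv pairs, are uncertain to the extent that the counting could split their reads. This holds also for Iglc2 against Iglc3 and Iglv1 against Iglv2.

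The CD45+ libraries held 14938629 to 76807504 counts and the CD45- libraries 6028275 to 68345191 counts. CPM below are read counts relative to the size of the library, scaled by edgeR's TMM method. Rbck1 was at 79.5 to 137 CPM in the 6 Hoil1+/+ CD45+ libraries and at 4.72 to 13.9 CPM in the 6 Hoil1-/- ones. Every CD45+ library thus stood on the side its Hoil1 label gives. The Vil1cre label was not checked in this way. Ptprc, which encodes CD45, was at 228 to 664 CPM and the epithelial gene Epcam at 6.15 to 60.1 CPM in the CD45+ libraries. The study's sample list leaves out library 13 (Hoil1-/- Il4ra f/f) and library 24 (Hoil1-/- Il4ra ΔIEC) as outliers of a principal component analysis. Tests below are over the other 10 CD45+ libraries, and values of libraries 13 and 24 are given beside them. Libraries are named by the number in their label.

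Light-chain genes took a large and variable share of the RNA. In Hoil1+/+ Il4ra f/f mice they made up 19.3% of counts in library 12, 10.4% in library 18 and 21.9% in library 19. In Hoil1+/+ Il4ra ΔIEC mice the share was 9.19% in library 20, 6.95% in library 21 and 10.3% in library 22. In Hoil1-/- Il4ra f/f mice it was 12.2% in library 14, 21.97% in library 15 and 7.46% in the left-out library 13. In Hoil1-/- Il4ra ΔIEC mice it was 10.48% in library 16, 6.12% in library 17 and 21.4% in the left-out library 24. The 5 f/f libraries of the sample list averaged 17.2% ± 5.48 (SD, n = 5) and the 5 ΔIEC libraries 8.61% ± 1.98 (SD, n = 5), with a narrow overlap at 10.45 to 10.48%. Libraries 13 and 24 each lay on the other side. By Hoil1 genotype the shares were 13.01% ± 6.06 (SD, n = 6) in Hoil1+/+ and 12.7% ± 6.69 (SD, n = 4) in Hoil1-/- libraries, which overlapped across nearly their whole range. Counting error is small against these spreads, since the widest 95% Wilson interval of a light-chain share spanned 0.0282 percentage points. PCR copies of a molecule are not told apart in these counts, so such intervals cover counting error only.

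**Figure D1:**
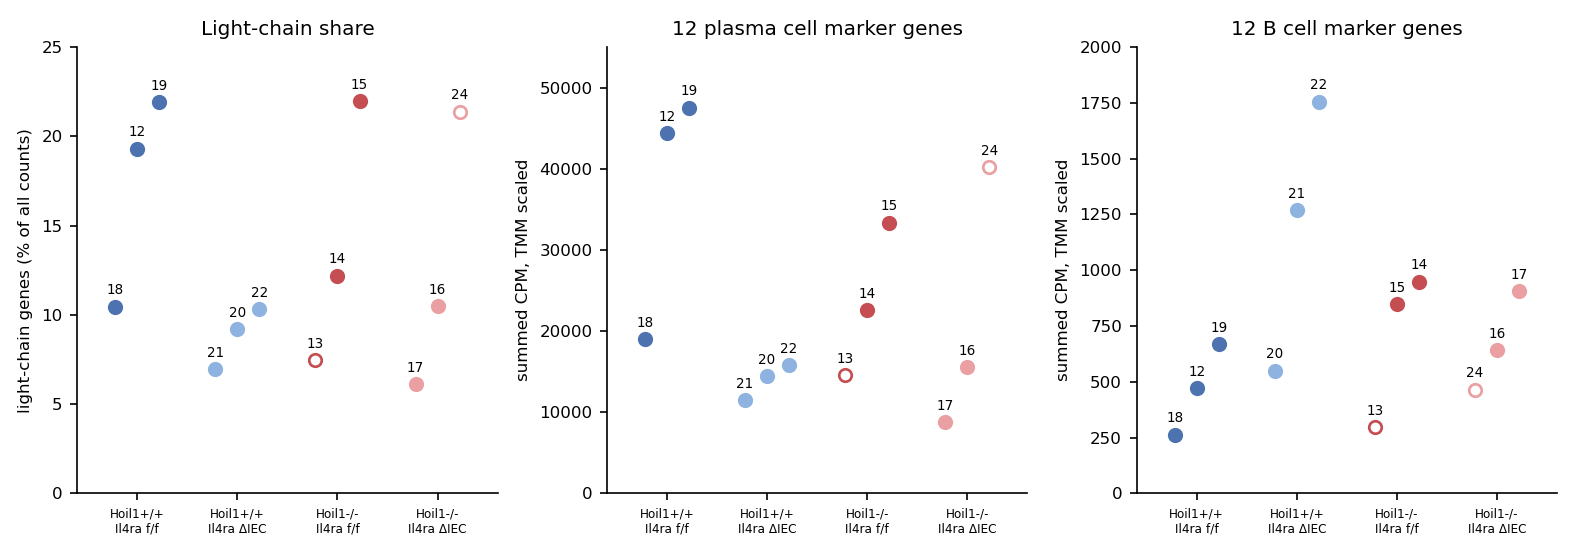
Each point is 1 CD45+ library, numbered as in its label, grouped by genotype, with open symbols for the 2 libraries that the study left out. The left panel gives the light-chain share of all counts (%), the middle and right panels the summed CPM of 12 plasma cell and 12 B cell marker genes. The ΔIEC libraries of the sample list stay at or below 10.48% light-chain counts and at or below 15780 plasma cell marker CPM.

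Of the 108 members, 67 had a count in all 12 CD45+ libraries, and Igkv1-132 and Igkv1-35 had none in any. The filter on low counts kept 104 members. A member that is present in few libraries passes this filter only through them, so the counts over these 104 are a description. Without Hoil1, light-chain genes showed no common direction. Averaged over the Il4ra genotypes, 0 of 104 passed an adjusted p of 0.05 in edgeR's quasi-likelihood test, where 0.00587% of the 17029 genes tested passed. At an unadjusted p under 0.05 there were 10 members, 4 higher and 6 lower in Hoil1-/- mice, beside 5.85% of all genes. The median log2 fold change was -0.13 over the members and -0.05 over all genes. With DESeq2, 2 members passed, Igkv4-51 and Igkv6-13, beside 0.774% of all genes. Igkv4-51 had 1592 reads in library 18, 31 in library 20 and 46 in library 21, all Hoil1+/+. It had no read in the Hoil1-/- libraries tested and 550 in the left-out Hoil1-/- library 24. Its call therefore rests on libraries without a read and measures no size of change. Within f/f mice, 0 members passed edgeR's test (0% of all genes) and 3 passed that of DESeq2 (0.54%), and 12 were under an unadjusted p of 0.05 in edgeR (5.27%). Within ΔIEC mice the numbers were 0 (0% of all genes), 3 (0.972%) and 8 (6.08%). For the interaction of both genes they were 0 (0%), 6 (0.948%) and 14 (7.01%). The median log2 value of the interaction was -0.11 over the members and -0.11 over all genes. With all 12 libraries the medians of the members turned, to 0.31 for the averaged Hoil1 comparison and to 1.42 for the interaction.

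Igkc, the constant gene of every kappa chain, was the most abundant member. It was at 157448 CPM in library 12, 60993 in library 18 and 220582 in library 19 (Hoil1+/+ Il4ra f/f). It was at 51385 CPM in library 20, 36732 in library 21 and 66819 in library 22 (Hoil1+/+ Il4ra ΔIEC). In Hoil1-/- mice it was at 69593 CPM in library 14 and 180843 in library 15 (f/f), and at 64858.5 CPM in library 16 and 35397 in library 17 (ΔIEC). Hoil1+/+ and Hoil1-/- libraries overlapped, and the log2 fold change was -0.15 (SE 0.41, adjusted p = 1.00 by edgeR). The sign of this difference was not stable, since with libraries 13 (48517 CPM) and 24 (178788 CPM) it was 0.15.

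In the Il4ra comparison, most light-chain genes had lower values with Vil1cre. In ΔIEC mice, 88 of the 104 members had lower levels than in f/f mice, and the median log2 fold change was -1.42, against -0.01 over all genes. None of the 104 passed the adjusted p of edgeR (1 of 17029 genes, 0.00587%), with a lowest adjusted p of 0.176. Igkv9-123, which was higher in ΔIEC mice, had this value. For Iglv3 and Igkc, which were lower, the adjusted p of edgeR was 0.283 and 0.343. At an unadjusted p under 0.05 there were 40 members (10.6% of all genes), of which 35 were lower in ΔIEC mice (5.36% of all genes) and 5 were higher. DESeq2 called 16 members, 14 lower and 2 higher, where it called 1.99% of all genes. The 14 were Igkc, Iglc2, Iglv3, Igkv1-117, Igkv1-135, Igkv12-44, Igkv17-127, Igkv4-57-1, Igkv4-58, Igkv4-61, Igkv4-62, Igkv4-79, Igkv8-30 and Igkv9-120, and the 2 were Igkv6-13 and Igkv9-123. Igkv9-123 had reads in 1 f/f library alone, so its call rests on libraries without a read and measures no size of change. The count of members depended on libraries. With all 12 libraries, 14 of 101 members were lower at an unadjusted p under 0.05 (2.93% of all genes) and the median was -0.84, and without library 15 (Hoil1-/- Il4ra f/f) it was 23 of 105 and -0.85. In these bulk samples, fewer antibody-making cells and less light-chain RNA per cell cannot be told apart.

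For Igkc, the f/f libraries of the sample list ran from 60993 to 220582 CPM and the ΔIEC libraries from 35397 to 66819 CPM, so only library 18 lay within the ΔIEC range. The log2 fold change was -1.38 (SE 0.42, adjusted p = 0.343 by edgeR). The lambda genes went the same way in value. Iglc1 was at -2.27 (SE 0.76), Iglc2 at -1.20 (SE 0.31) and Iglc3 at -0.79 (SE 0.48) on the log2 scale, with adjusted p of 0.383, 0.286 and 0.578. Iglv1, Iglv2 and Iglv3 were at -2.12, -1.66 and -1.37 on that scale, with adjusted p of 0.336, 0.486 and 0.283. Single libraries moved several of these values. Iglc3 was at -0.17 without library 15, -0.50 without library 17 and -1.29 without library 16, and Iglc1 at -1.48 without library 12 and -3.44 without library 16. Iglv2 was at -0.92 without library 12 and -2.58 without library 22, and Iglv3 at -2.06 without library 16. Iglv3 was the lambda gene whose groups did not overlap. It was at 50.1, 60.5 and 48.4 CPM in libraries 12, 18 and 19 and at 35.1 and 56.5 CPM in libraries 14 and 15 (f/f). The ΔIEC libraries were all lower, at 23.5, 15.7 and 23.96 CPM in libraries 20, 21 and 22 and at 26.5 and 6.32 CPM in libraries 16 and 17. The left-out libraries were at 113 CPM (13, f/f) and 35.3 CPM (24, ΔIEC), so with them the groups overlapped.

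Groups that did not overlap were few. Between ΔIEC and f/f, 5 of 104 members had no overlap, beside 2.22% of all genes tested, and between Hoil1-/- and Hoil1+/+ it was 0 of 104, beside 1.08%. These members were named after their values were seen. Below f/f in every ΔIEC library of the sample list were Iglv3, Igkv4-62, Igkv4-79 and Igkv9-120. With the left-out libraries the groups of Igkv4-62 and Igkv4-79 overlapped too. Igkv4-62 was at 5.44 CPM in library 24 (ΔIEC), against 1.16 in library 18 and 0.0349 in library 13 (both f/f). Igkv4-79 had no read in library 13. Igkv9-120 was at 5024, 588 and 1198 CPM in libraries 12, 18 and 19 and at 384 and 566 in libraries 14 and 15. It was at 83.4, 225 and 302 CPM in libraries 20, 21 and 22 and at 234 and 17.6 in libraries 16 and 17. The left-out ΔIEC library 24, at 1469 CPM, was above 4 of the 5 f/f libraries, and the left-out f/f library 13, at 116 CPM, was within the ΔIEC range. Igkv9-123 was the member above f/f in every ΔIEC library. It had 0, 62 and 0 reads in libraries 12, 18 and 19 and none in libraries 13, 14 and 15, and 6576, 1087 and 1348 reads in libraries 20, 21 and 22, 175, 31 and 12947 in libraries 16, 17 and 24. All 6 ΔIEC libraries thus had reads of this segment, against library 18 alone among the f/f libraries. It held at most 0.554% of the Igkv counts per kilobase of a library. It passed the filter on low counts only through ΔIEC libraries, so its place among these 5 members is a description. Its adjusted p of 0.176 by edgeR rests on f/f libraries without a read, and its fitted fold change measures no size of change.

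**Figure D2:**
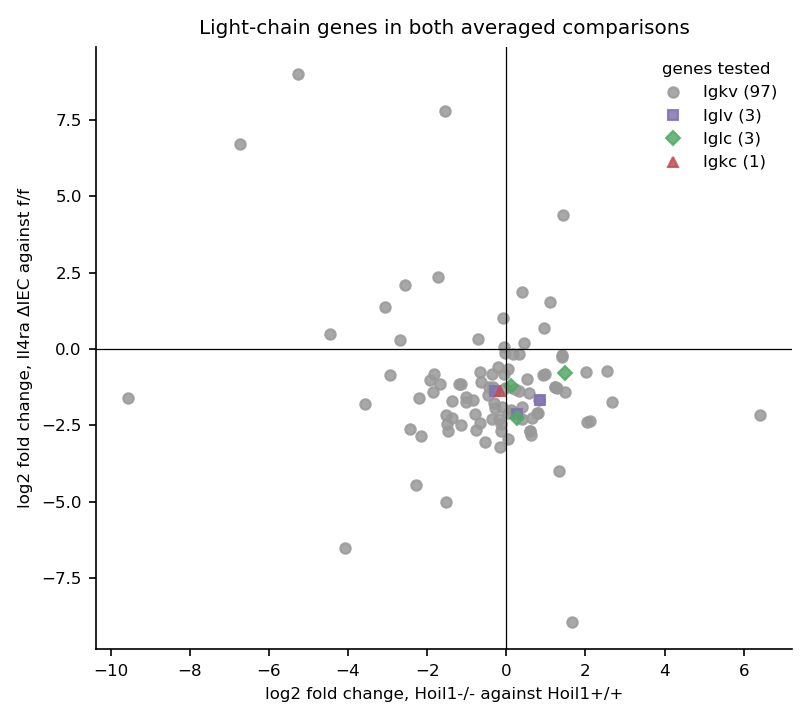
Each symbol is 1 of the 104 light-chain genes tested, with the log2 fold change of Hoil1-/- against Hoil1+/+ on the x axis and of Il4ra ΔIEC against f/f on the y axis, both fitted by edgeR over 10 CD45+ libraries. On the x axis 45 genes are above 0 and 59 below, and on the y axis 16 are above 0 and 88 below. The points far from the center are Igkv genes.

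Marker genes of other cell states are given beside these values. All 12 plasma cell markers had lower values in ΔIEC mice, with a median log2 fold change of -1.01, 9 of them at an unadjusted p under 0.05 and 0 after adjustment. Jchain, which links IgA and IgM units, was at -1.32 (SE 0.31, adjusted p = 0.226), and Igha, the heavy chain of IgA, at -1.41 (SE 0.51, adjusted p = 0.410). Txndc5 and Xbp1, active in secretory cells, were at -1.28 and -0.92, with adjusted p of 0.415 and 0.471. The summed level of the plasma cell list ran from 18989 to 47515 CPM in the f/f libraries and from 8728 to 15780 CPM in the ΔIEC libraries, with library 13 at 14545 and library 24 at 40156. Jchain made up most of this sum, at 38941 of 44354 CPM in library 12. With all 12 libraries, 2 of these 12 markers were under an unadjusted p of 0.05. Of 11 genes of antibody assembly and transport, 9 were lower in value in ΔIEC mice, 4 at an unadjusted p under 0.05, and 0 passed after adjustment. B cell markers had the opposite sign. Of 12, 10 were higher in ΔIEC mice with an unadjusted p under 0.05, with a median log2 fold change of 1.66, and 0 passed after adjustment. Cd79a and Cd79b, parts of the antigen receptor that plasma cells can keep, were at -0.16 and -0.07, with adjusted p of 0.979 and 0.992. The summed level of the B cell list ran from 262 to 948 CPM in f/f and from 549 to 1755 CPM in ΔIEC libraries. The left-out libraries 13 and 24 were at 295 and 463 CPM. Cd79a and Cd79b were at 267 and 102 of 471 CPM in library 12 and at 535 and 186 of 1755 CPM in library 22. With all 12 libraries, 7 of the 12 B cell markers were higher at an unadjusted p under 0.05. The part of these cell types in the light-chain values was not tested.

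The other lists are given as counts past an unadjusted p of 0.05. Over all genes the share past it was 10.6% in the Il4ra and 5.85% in the Hoil1 comparison. The lists are too short to be judged against these shares. In the Il4ra comparison these were 1 of 5 tested germinal center markers, 0 of 8 T cell markers, 1 of 6 myeloid markers and 1 of 8 enterocyte markers, which were summed at 36.9 to 524 CPM. Of 10 transcription factors it was 3, of 4 genes of mutation and switching 0, and of 3 tested genes of recombination and the surrogate light chain 1. Rag1, Rag2, Vpreb2 and Igll1, which mark cells that are rearranging these loci, were too low to be tested. Of 7 heavy-chain constant genes tested, 2 were past it. In the Hoil1 comparison, 2 germinal center markers, 1 enterocyte marker and 1 gene of mutation and switching were past it and lower, and 1 transcription factor was past it and higher, with 0 in the T cell, myeloid, recombination and assembly lists. Further, 5 of the 12 B cell markers, 0 of the 12 plasma cell markers and 1 of the 7 heavy-chain genes were past it, all higher in Hoil1-/- mice. Ighd, the heavy chain of IgD on naive B cells, was at 1.67 (adjusted p = 0.516) with the loss of Hoil1 and 1.94 (adjusted p = 0.185) in ΔIEC mice.

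The ratio of kappa to lambda was computed as Igkc over the sum of the Iglc genes, each in counts per kilobase of exon. It was 20.99 in library 12, 66.3 in library 18 and 104 in library 19 (Hoil1+/+ Il4ra f/f). It was 139 in library 20, 69.6 in library 21 and 83.3 in library 22 (Hoil1+/+ Il4ra ΔIEC). In Hoil1-/- mice it was 28.4 in library 14 and 68.8 in library 15 (f/f, with 21.9 in library 13), and 32.5 in library 16 and 76.2 in library 17 (ΔIEC, with 103 in library 24). Kappa thus exceeded lambda in every library, and the ratio varied widely within genotypes. The 4 libraries under 35 were 12, 13, 14 and 16. The mean log2 ratio was 5.55 in Hoil1-/- and 6.13 in Hoil1+/+ libraries, a difference of -0.58 (exact two-sided permutation test over 210 splits, p = 0.333). Between ΔIEC (6.18) and f/f (5.61) the difference was 0.57 (5 against 5 libraries, exact p = 0.310). After Benjamini-Hochberg adjustment over these 2 tests both exact p were 0.333. Neither difference was larger than the spread between libraries. Library 12 weighed on both. Without it the Hoil1 difference was -0.92 (exact p = 0.0556) and the Il4ra difference 0.26 (exact p = 0.611). With all 12 libraries the differences were -0.57 (exact p = 0.318) and 0.84 (exact p = 0.104). The V genes gave the same picture, with ratios of 13.7 to 96.5 and differences of -0.55 (exact p = 0.371) and 0.60 (exact p = 0.262).

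**Figure D3:**
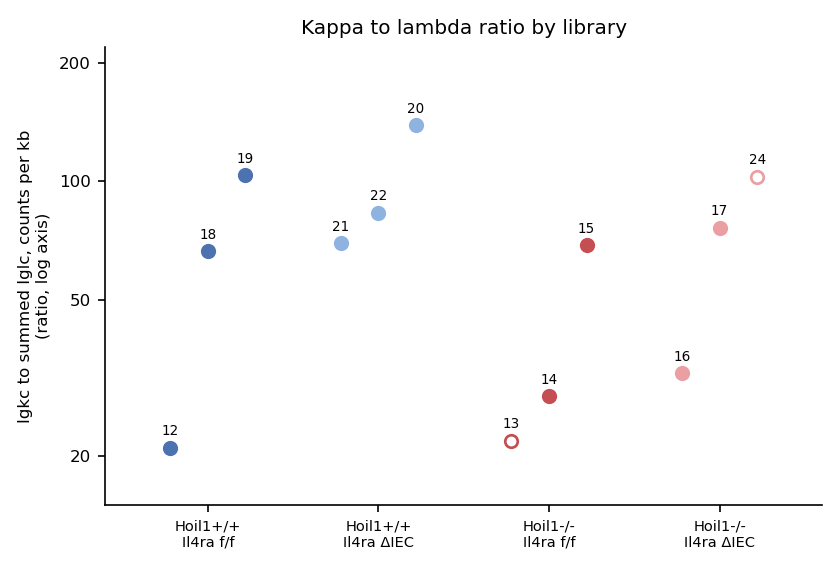
Each point is the ratio of Igkc to the summed Iglc genes in 1 CD45+ library, in counts per kilobase on a log axis, numbered as in its label and grouped by genotype, with open symbols for the libraries that the study left out. Each genotype spans a wide range, 20.99 to 104 among Hoil1+/+ f/f libraries and 69.6 to 139 among Hoil1+/+ ΔIEC libraries.

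Within lambda, Iglc1 was the most abundant C gene per kilobase in 8 of 12 libraries. Its share of lambda C counts per kilobase was 89.3%, 60.1% and 63.6% in libraries 12, 18 and 19, and 37.0%, 49.4% and 38.0% in libraries 20, 21 and 22. It was 29.8%, 73.2% and 37.6% in libraries 13, 14 and 15, and 64.2%, 30.3% and 67.1% in libraries 16, 17 and 24. Library 12 stood at the top. Its Iglc1 level was 5719 CPM, where the other 11 libraries had 117 to 1532 CPM, and its Iglv1 level was 5032 CPM, where the others had 190 to 1548 CPM. Its Iglc3 level (147 CPM) was within the range of the rest (76.1 to 844 CPM), and its Iglc2 level (722 CPM) was below those of libraries 13 and 15. Library 13, with a similar ratio, had another makeup. Its Iglc2 level of 1053 CPM and its Iglv2 level of 501 CPM were the highest of the 12 libraries, and Iglv2 held 37.2% of its lambda V counts per kilobase, against 1.23 to 22.2% elsewhere. Iglv1 was the most abundant lambda V gene in all 12 libraries (54.7 to 95.8%). Its level per kilobase was 0.819 to 1.39 times that of Iglc1 and Iglc3 together, the C genes it is joined to. Iglv2 and Iglv3 together were at 0.173 to 0.967 times Iglc2 per kilobase. The annotated exon length of Iglc2 (612 bases, against 454 for Iglc1 and 452 for Iglc3) enters these values. Iglc4 had 1 read in library 12, 37 reads in library 21 and none in the other 10.

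Iglc3 was the lambda gene with the largest value in the Hoil1 comparison. It was at 147, 85.8 and 261 CPM in libraries 12, 18 and 19 and at 76.1, 78.9 and 167 CPM in libraries 20, 21 and 22. In Hoil1-/- mice it was at 220 and 844 CPM in libraries 14 and 15, 392 and 132 CPM in libraries 16 and 17, and 545 and 288 CPM in the left-out libraries 13 and 24. The ranges overlapped, with libraries 14 and 17 below library 19. The log2 fold change was 1.48 (SE 0.48, unadjusted p = 0.0114, adjusted p = 0.783 by edgeR). It was 0.85 without library 15 and 0.98 without library 16. For Iglc1, Iglc2, Iglv1, Iglv2 and Iglv3 it was 0.27, 0.11, 0.26, 0.84 and -0.29, with adjusted p from 0.879 to 1.00, and the signs of all but Iglv2 changed when some library was left out or with all 12. Iglv2 ran from 0.33 to 1.77 without 1 library.

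**Figure D4:**
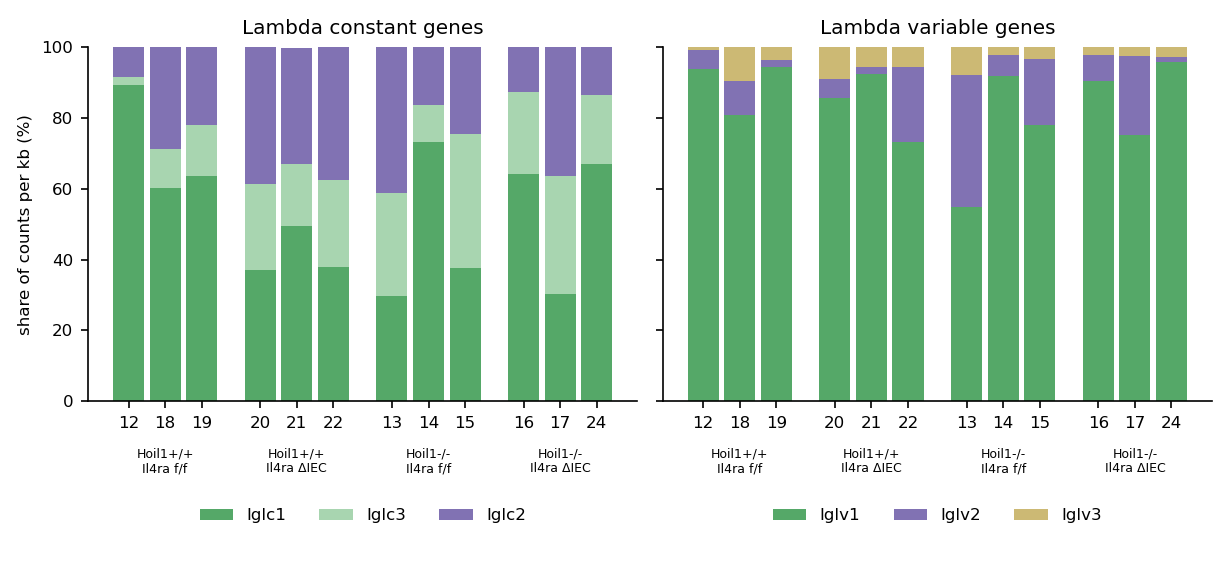
Stacked bars give the share (%) of each lambda C gene (left) and V gene (right) in the counts per kilobase of its class in each of the 12 CD45+ libraries, ordered by genotype. Iglc1 ranges from 29.8 to 89.3% and Iglv1 from 54.7 to 95.8%. Iglc4, at 0.370% or less, is not drawn.

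Different kappa V segments led in different libraries. Usage is the share of a segment in all Igkv counts per kilobase of a library. No segment was among the 10 most used of all 12 libraries, and 39 of the 100 were among the 10 most used of at least 1, 16 of them in 1 library alone. The most widely used were Igkv6-15, in the top 10 of 11 libraries, and Igkv1-110 and Igkv10-96, each in that of 10. By mean share over the 12 libraries the order was Igkv10-96 (7.42%), Igkv6-15 (5.75%), Igkv1-110 (4.88%), Igkv8-27 (4.66%), Igkv5-48 (4.38%), Igkv12-44 (3.31%), Igkv8-21 (3.27%), Igkv12-46 (3.01%), Igkv6-23 (2.86%) and Igkv1-117 (2.72%). Neighbors in this order were within each other's range over libraries.

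The same segments led or trailed depending on the library. Igkv10-96, whose end is printed above, was the most used segment of library 12 (8.13%), library 22 (16.5%) and the left-out library 13 (15.7%), and held 1.88% of library 15. Igkv12-46 held 24.7% of library 21, the highest share of any segment in any CD45+ library, and 0.258 to 2.48% of the other 11. Igkv8-21 held 10.3% of library 15 and 15.3% of library 16, both Hoil1-/-, and 0.112 to 3.78% of the others. Igkv5-48 led library 19 with 15.2%, Igkv8-27 library 20 with 12.8%, Igkv6-15 library 17 with 13% and Igkv8-30 library 18 with 11.02%. Igkv1-110 led library 14 with 8.38% and Igkv4-57-1 the left-out library 24 with 8.51%, the latter named after its values were seen. With counts not divided by length, Igkv1-110 in place of Igkv10-96 led library 12. The widest 95% Wilson interval of a leading share spanned 0.258 percentage points, far less than these differences.

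In all, 14 segments exceeded 5% in some library at more than 5 times their own median share. Among these, chosen after their values were seen, were Igkv4-63, at 10.6% of library 17 against a median of 1.203%, Igkv1-135, at 8.92% of library 13 against 1.74%, and Igkv4-72, at 8.45% of library 19 against 1.00%. The effective number of segments, the exponential of the Shannon entropy of the shares, was 25.3 in library 21, where Igkv12-46 dominated, and 39.9 in library 24. By genotype it was 31.0 ± 3.64 (SD, n = 6) in Hoil1+/+ and 33.8 ± 2.83 (SD, n = 4) in Hoil1-/- libraries, 33.2 ± 3.32 (SD, n = 5) in f/f and 31.0 ± 3.62 (SD, n = 5) in ΔIEC libraries, and these ranges overlapped. Between 71 and 93 of the 100 segments had a read in a library.

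**Figure D5:**
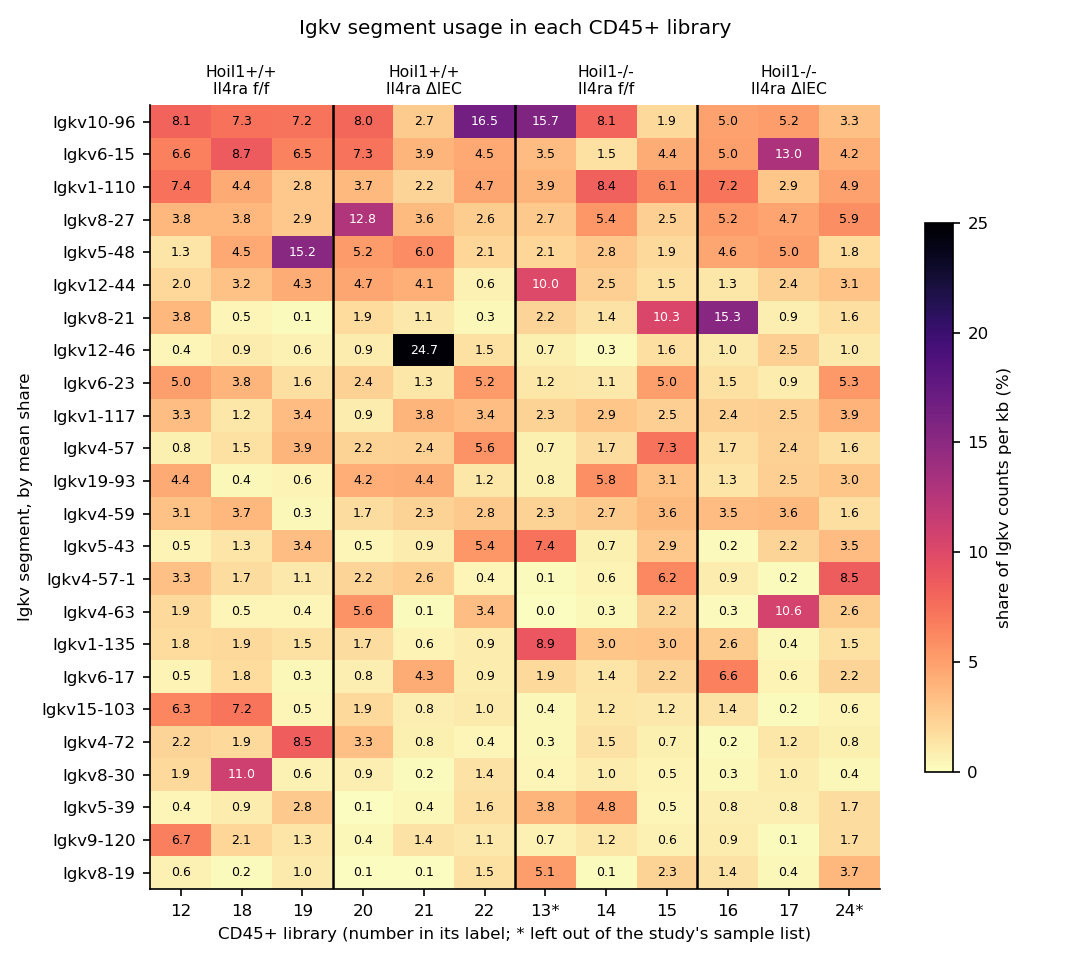
Each cell gives the share (%) of an Igkv segment in the Igkv counts per kilobase of a CD45+ library, with the 24 segments of highest mean share as rows and the 12 libraries, by genotype, as columns, and an asterisk on libraries that the study left out. Among the dark cells are Igkv12-46 at 24.7% in library 21 and Igkv10-96 at 16.5% in library 22 and 15.7% in library 13. Igkv8-21 is at 15.3% in library 16 and 10.3% in library 15.

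Segment usage overlapped between genotypes. All 10 leading segments had shares that overlapped between Hoil1+/+ and Hoil1-/- and between f/f and ΔIEC libraries. Pairs of libraries shared a median of 51.7% of their usage (the summed smaller share over segments) within a genotype, over 12 pairs with a range of 46.0 to 65.1%, and 52.9% between genotypes, over 54 pairs with a range of 40.9 to 64.4%. Pairs that share a library are not independent, so this is a description. Igkv10-96 had a median of 7.65% in Hoil1+/+ and 5.06% in Hoil1-/- libraries, with ranges of 2.66 to 16.5% and 1.88 to 8.10%. Igkv8-21 had medians of 0.773% and 5.86%, with ranges of 0.112 to 3.78% and 0.867 to 15.3%. As a level, Igkv8-21 was at 2.67 in log2 fold change (SE 1.17, unadjusted p = 0.0458, adjusted p = 0.783 by edgeR), and libraries 15 (10478 CPM) and 16 (4122 CPM) stood far above library 14 (506 CPM) and library 17 (125 CPM). The highest Hoil1+/+ value was 3086 CPM in library 12. Single libraries decided the size for Igkv8-21, which was 0.63 without library 16, 0.97 without library 15 and 4.24 without library 12. Igkv8-30 was at -1.50 (SE 0.65, adjusted p = 0.783), with 3154 CPM in library 18 and 30.1 to 1474 CPM in the other Hoil1+/+ libraries, against 86.8 to 521 CPM in the 4 Hoil1-/- libraries.

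Of the Igkv genes, the smallest unadjusted p in the averaged Hoil1 comparison belonged to Igkv6-13, Igkv5-37 and Igkv9-123, in that order. Igkv6-13 was at 109, 83.5 and 50.2 CPM in libraries 12, 18 and 19 and at 24.1, 97.2 and 96.6 CPM in libraries 20, 21 and 22. In Hoil1-/- mice it was at 3.62 and 2.20 CPM in libraries 14 and 15, 13.1 and 105 CPM in libraries 16 and 17, and 47.6 and 684 CPM in the left-out libraries 13 and 24. The groups overlapped through library 17, and the left-out library 24 was the highest of all 12. The log2 fold change over the 10 libraries was -2.55 (SE 0.62, unadjusted p = 0.00218, adjusted p = 0.570 by edgeR). Igkv5-37 had reads in 5 of the 12 libraries alone, 5049 of them in library 15, 580 in library 17, and 31, 84 and 36 in libraries 18, 19 and 20. For this gene and Igkv9-123 a fitted fold change rests on libraries without a read, so it measures no size of change.

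Families differed in weight. Igkv4, with 26 genes, held 19.6% of the usage by mean (8.82 to 30.8% over libraries), Igkv6, with 9 genes, 13.8% (5.75 to 19.3%), and Igkv8, with 10 genes, 12.7% (4.87 to 23.3%). Igkv1, with 10 genes, held 10.8% (6.02 to 16.8%) and Igkv12, with 6 genes, 9.57% (2.99 to 34.4%, the highest in library 21). Igkv10, with 3 genes, held 8.42%, of which Igkv10-96 made up 7.42%. Igkv3, with 9 genes, held 3.01%, and Igkv11, Igkv7, Igkv20 and Igkv18 held 0.0580% or less each. Segments on the minus strand, which join by inversion, are 62% of the genes and held a median of 75.4% of the usage (59.96 to 82.2%). Those on the plus strand, which join by deletion, held 24.6% (17.8 to 40.04%). Divided into 3 parts by distance from Igkc, the 33 nearest genes held a median of 29.6% (17.8 to 41.4%), the 33 middle ones 33.2% (19.5 to 51.8%) and the 34 most distant 36.7% (22.8 to 48.5%), with ranges that overlapped. The V genes of kappa together were at 0.552 to 0.785 times Igkc per kilobase.

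CD45- cells held few light-chain reads, at 0.00294 to 0.892% of counts. The highest was library 2 (Hoil1-/- Il4ra f/f). Between 8 and 42 Igkv segments had a read in a CD45- library, and single segments weighed more. Igkv4-91 held 63.8% of the usage in library 8 (3982 Igkv reads), Igkv4-61 held 50.1% in library 7 (708 reads) and Igkv12-98 held 47.9% in library 23 (2386 reads). For the 10 CD45- libraries with at least 1000 Igkv reads, the CD45+ library with the most shared usage was found. It had the same genotype in 6 and the same genotype and age in 5, of 9 for which such a library existed. Each genotype holds 3 of the 12 CD45+ libraries, and whether these counts exceed chance was not tested. Some choices were near ties, as library 8 shared 16.4% with library 12 and 16.2% with library 14. Library 10 shared 49.4% with library 21 (both Hoil1+/+ Il4ra ΔIEC, 9.7 weeks), and Igkv12-46, which led library 21, also led library 10 with 20.96%. Igkv4-57-1 led both library 5 (30.5%) and library 24 (8.51%), both Hoil1-/- Il4ra ΔIEC at 9.1 weeks. Other leaders were scarce in the closest CD45+ library. Igkv4-91, the leader of library 8, held 0.799% of its closest library 12, Igkv15-103, the leader of library 2 with 19.5%, held 0.468% of its closest library 19, and Igkv12-98, the leader of library 23, held 1.10% of its closest library 20. Igkv10-96, the leader of library 6 with 9.73%, held 8.13% of library 12, where the median CD45+ library had 7.28%. The labels do not tie CD45- libraries to CD45+ libraries of the same animal, and this comparison was added after the usage had been seen.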

How the data were processed

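The counts were made by the authors from poly(A) libraries (NuGen Universal Plus, NovaSeq, paired reads of 150 bp): reads were trimmed with cutadapt (quality 20, at least 40 bp kept), aligned to mm10 with STAR and counted per gene with featureCounts on an ENSEMBL annotation. Strand and multi-mapping settings are not given in the sources used here, which bears on near-identical and overlapping genes. The deposited file holds whole-number counts for 24 libraries. Of its 39056 gene IDs, 38872 matched GENCODE M21 (GRCm38) without version, and symbols, gene types, exon lengths and sequences came from M21. The members and gene lists were chosen with earlier results of these data known.

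Genes were filtered with edgeR 4.0.16 (filterByExpr, minimum count 10, minimum total 15), scaled by TMM and tested by the quasi-likelihood test in R 4.3.3 with 1 mean per genotype, over the 10 CD45+ libraries of the study's sample list. Averaged and within-genotype contrasts were Benjamini-Hochberg adjusted over all genes tested, at 0.05. CPM values are TMM-scaled over all 12 CD45+ libraries. Usage and ratios were computed from counts per kilobase of exon. Ratios were compared on the log2 scale by exact two-sided permutation tests over all splits, written in Python 3.11.15. The test was checked against that of scipy 1.17.1 on random values. Genes were named by rule: the lambda genes, Igkc, the 10 Igkv genes of highest mean share, the 3 of smallest unadjusted p in the averaged Hoil1 comparison, the Igkv gene with the highest share in any library not yet named, and up to 6 genes of each list by mean CPM. Any other member was chosen after its values were seen. Alternatives were all 12 libraries, relative log expression scaling, scaling without immunoglobulin genes, no filter, DESeq2 1.42.0 and leaving out each library. The scripts were tested on simulated data.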

Additional observations from a re-analysis of the deposited data

Results flagged for a closer look

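Among 68 groups of libraries checked, 11 held a library whose value stood apart from the others of its group, where chance gives about 5%. The segments checked were picked by their shares in these same libraries, Igkv8-30 for its highest share in any library. The 5% holds for values not picked in this way, so the count cannot be judged against it. Groups cut by Hoil1 and by Il4ra share libraries, so these are not 11 separate cases. All concern the share of a segment in the Igkv counts per kilobase. Igkv12-46 held 24.7% in library 21, against a next value of 1.53% in Hoil1+/+ and 2.48% in ΔIEC libraries. Igkv8-21 held 15.3% in library 16, with the next ΔIEC library at 1.85%. Igkv5-48 held 15.2% in library 19, with the next at 5.96% in Hoil1+/+ and 4.53% in f/f libraries. Igkv8-27 held 12.8% in library 20, with the next at 3.79% in Hoil1+/+ and 5.18% in ΔIEC libraries. Igkv8-30 held 11.02% in library 18, and the next value was 1.87% in both groups. Igkv6-23 held 4.99% in library 15, against 1.49% in the next Hoil1-/- library. Igkv10-96 stood apart downward, at 1.88% in library 15 against 7.24% in the next f/f library.

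Signal also appeared outside the main comparisons. Light-chain genes took 0.892% of counts in CD45- library 2 (Hoil1-/- Il4ra f/f), the highest of the CD45- libraries. The 60 light-chain V pseudogenes of the table had up to 1941 reads in a CD45+ library, in library 18.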

How the results depend on the processing

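With DESeq2 in place of edgeR, 2, 3, 3, 16 and 6 light-chain genes passed the adjusted p in the averaged Hoil1, Hoil1 within f/f, Hoil1 within ΔIEC, averaged Il4ra and interaction comparisons, where edgeR called 0 under its other settings and without any 1 library. The cause was not tested. In the averaged Hoil1 comparison with all 12 libraries, 6 named genes turned sign, to 0.24 for Iglv3, 0.15 for Igkc, 0.0867 for Igkv8-27, 0.0171 for Igkv12-44, 0.48 for Igkv6-23 and 0.30 for Igkv1-117 (log2). Leaving out 1 library turned the sign of others. In the Hoil1 comparison the log2 fold change then ran from -0.89 to 1.06 for Iglc1, -0.59 to 0.92 for Iglv1, -0.0747 to 0.31 for Iglc2, -0.99 to 0.0479 for Iglv3, -0.56 to 0.11 for Igkc, -1.43 to 0.0906 for Igkv6-15, -0.34 to 0.76 for Igkv1-110, -0.66 to 0.23 for Igkv8-27, -1.30 to 0.14 for Igkv5-48, -2.31 to 0.46 for Igkv12-46 and -1.01 to 9.52 for Igkv5-37. In the Il4ra comparison it ran from -0.84 to 1.93 for Igkv12-46 and -8.51 to 5.22 for Igkv5-37. Igkv5-37 had reads in 5 of the 12 libraries, so its fitted values rest on libraries without a read and measure no size of change. The other named genes kept their sign under these settings. The kappa to lambda difference kept its sign, from -0.92 to -0.33 (Hoil1) and from 0.26 to 0.85 (Il4ra) without 1 library. The smallest p that the exact permutation test allows is 0.00476 and 0.00794 in these designs.

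Groups of 4 to 6 libraries and the wide spread of single segments limit these comparisons. Read depth limits them less, with 251254 to 3715208 Igkv counts and 8187 to 309205 Iglc counts in a CD45+ library. No paired analysis was possible because each replicate number in the labels belongs to 1 library, so groups share none.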
